A study of Mus musculus with 16 samples.

Results

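The TNF superfamily pairs trimeric ligands with cell surface receptors that steer inflammation, cell survival and bone turnover. Levels of 9 of its genes were followed here in intervertebral discs of mouse tails: the ligands Tnf, Ltb and Tnfsf11, the signalling receptors Tnfrsf1a, Tnfrsf1b, Tnfrsf11a, Tnfrsf12a and Fas, and the decoy receptor Tnfrsf11b. The genes were picked by name out of the 49315 genes in the deposited table, and 7 of the 9 had levels high enough to be tested. Each library held RNA pooled from 4 coccygeal discs of 1 mouse. The 16 mice were wild type, with intact discs (3 mice) or injured discs (4 mice), or carried the Adam8EQ allele, with intact discs (4 mice) or injured discs (5 mice). Adam8 encodes a membrane-bound metalloprotease, and the labels give the allele by its name only. The series title sets the mutants against DBA, an inbred strain. The way of injury, the time after it and the age of the mice are not given in the sources used here, and whole discs were taken, so fewer cells of a type and less RNA per cell cannot be told apart.

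TNF, the product of Tnf, is made as a membrane protein and shed by a metalloprotease. It binds the widely expressed receptor TNFR1 (Tnfrsf1a), which carries a death domain, and TNFR2 (Tnfrsf1b), which lacks one and is best known from immune and endothelial cells. RANKL (Tnfsf11) drives osteoclast formation through RANK (Tnfrsf11a) on cells of the monocyte lineage, and osteoprotegerin (Tnfrsf11b) is a secreted receptor that captures RANKL. Fn14 (Tnfrsf12a) is the receptor for TWEAK (Tnfsf12) and is known as a gene induced by growth factors and tissue damage. Lymphotoxin beta (Ltb) forms a membrane complex with lymphotoxin alpha that acts on the receptor Ltbr, and FAS passes death signals from FAS ligand. In degenerating discs TNF is known as an inflammatory cytokine that raises matrix proteases.

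Levels are given as TPM, a unit corrected for the length of each gene and for sequencing depth, so levels of different genes can be compared. Differences between groups were taken between means of log2(TPM + 1), which makes the change of low genes look smaller than it is. The libraries held 10220080 to 24880842 reads as implied by the TPM values. The summed level of 4 matrix cell markers (Acan, Col2a1, Sox9, Comp) was 3862.5 TPM or more in each library, which alone does not identify disc tissue. The sum of 5 skeletal muscle markers (Acta1, Myh4, Ckm, Myl1, Tnnt3) was uneven. It was 134 to 529 TPM in intact wild-type discs and 78.6 to 95.9 TPM in intact mutants. In injured discs it was 53.0 to 149 TPM in the wild type and 16.2 to 391 TPM in mutants. The part of muscle in the results was not tested. The injured wild-type libraries did not lie together. On the first principal component, which held 40.6% of the variance, mouse 1 at -42.6 lay inside the range of the 7 intact libraries (-66.9 to -40.2) and mouse 2 at -23.2 lay just outside it, while mouse 3 at 84.9 and mouse 4 at 41.8 lay among the injured mutants (39.6 to 97.8). Summed levels of 6 macrophage markers (Adgre1, Cd68, Csf1r, Mrc1, Lyz2, C1qa) moved the same way, from 126 to 188 TPM over the 7 intact libraries to 206, 342, 3362 and 2165 TPM in injured wild-type mice 1 to 4 and 656 to 6977 TPM in injured mutants. Lyz2 weighed most in these macrophage sums after injury, with means of 1102 TPM in injured wild-type discs and 1912 TPM in injured mutants. Cd68 came next, with means of 225 and 355 TPM. The part of these cells in the results was not tested.

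In intact discs the decoy receptor was the most abundant of the 9. Its gene, Tnfrsf11b, had a level of 686 ± 76.2 TPM in 3 wild-type mice and 537 ± 134 TPM in 4 mutants (mean ± SD), and made up 59.6% to 82.1% of the summed level of the 9 genes in the 7 intact libraries. Tnfrsf1a followed at 150.04 ± 33.5 and 159 ± 33.6 TPM. Tnfrsf12a (16.2 ± 7.40 and 16.6 ± 5.19 TPM) and Fas (12.4 ± 2.52 and 10.7 ± 1.14 TPM) came next, with ranges that overlapped each other in the wild type and in mutants. Tnfrsf1b lay at 2.73 ± 0.323 and 3.59 ± 1.09 TPM and Tnfrsf11a at 1.69 ± 0.916 and 1.38 ± 0.848 TPM. The 3 ligands were lowest in the wild-type intact discs, all under 0.5 TPM. In intact mutants Tnf at 0.189 to 2.34 TPM overlapped Tnfrsf11a at 0.683 to 2.62 TPM. Intact discs thus held abundant transcripts of osteoprotegerin and TNFR1 and few of these 3 ligands, with intact mutant mouse 3 highest in Tnf at 2.34 TPM.

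**Figure D1:**
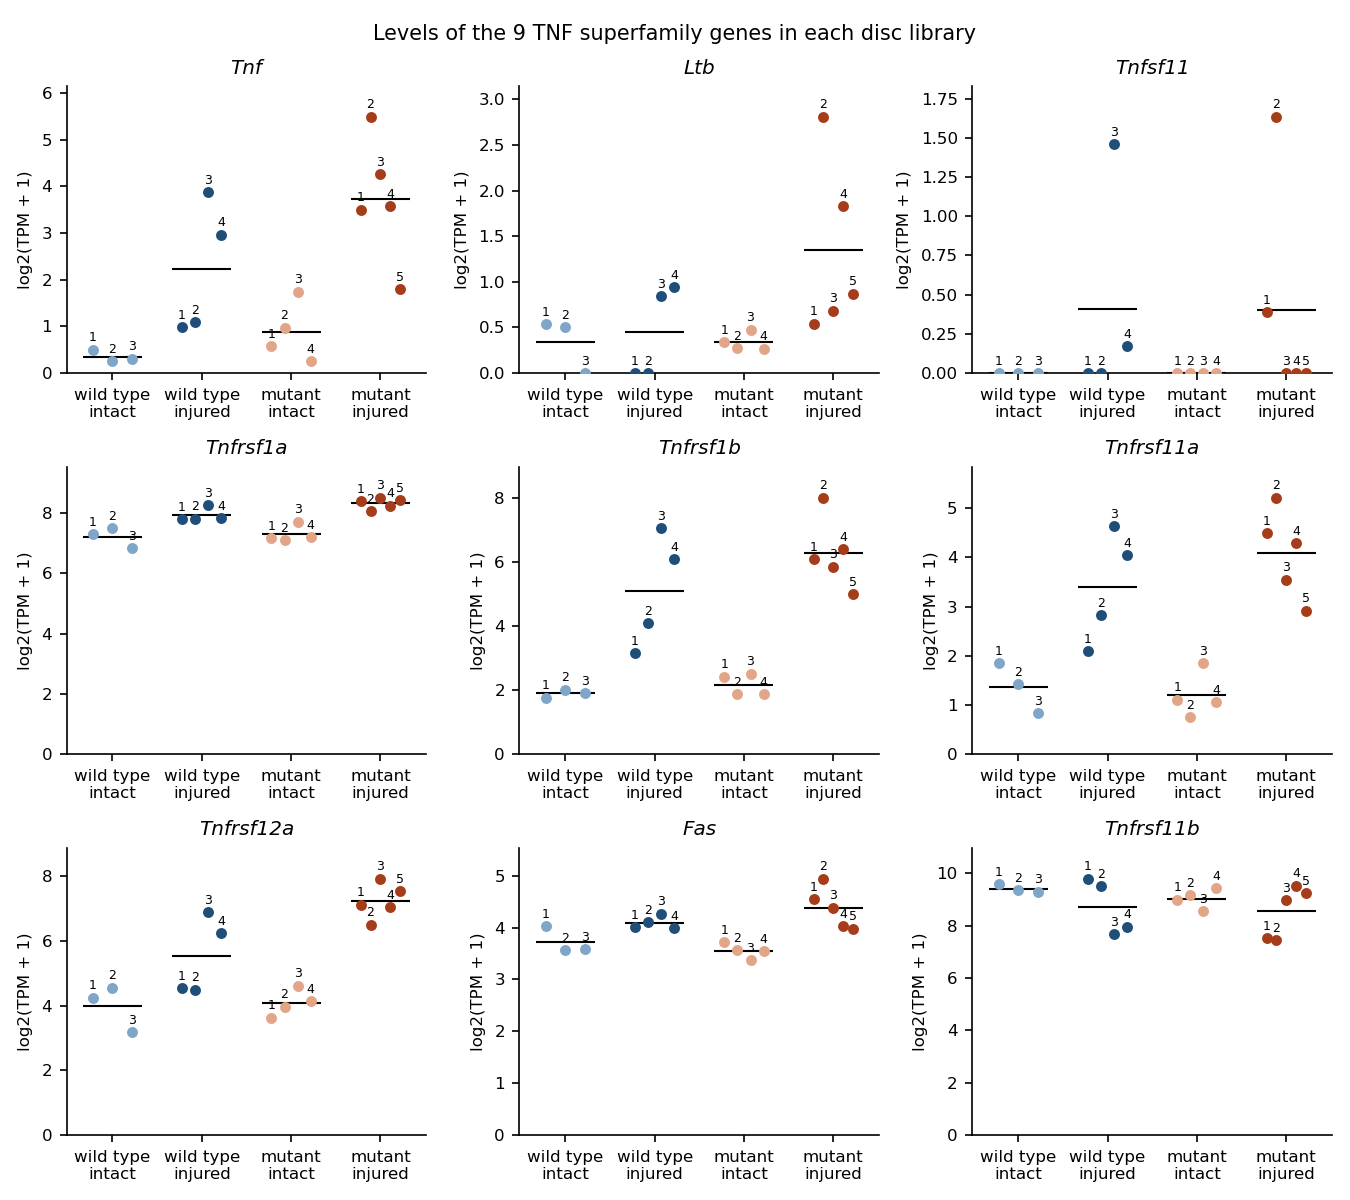
Level of each of the 9 genes as log2(TPM + 1), 1 point per mouse, numbered by mouse, with the group mean as a line; panels have their own vertical scales, all starting at 0. In Tnf, Tnfrsf1b and Tnfrsf11a injured wild-type mice 3 and 4 lie within the range of the injured mutants and mice 1 and 2 below it, in Tnfrsf12a mouse 4 at 74.6 TPM also lies below that range, and in Tnfrsf11b mice 3 and 4 lie below all intact libraries.

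With injury 6 of the 7 tested genes rose in mutants (limma adjusted p under 0.05) and none fell, where 30.8% of all 24188 tested genes were called, 13.1% as higher and 17.7% as lower. The rises were those of Tnf, Tnfrsf1a, Tnfrsf1b, Tnfrsf11a, Tnfrsf12a and Fas. In each of the 6 every injured mutant library lay above every intact mutant library, a pattern found in 12% of tested genes. Of the 6, Tnf passed the filter on low values (1 TPM in at least 3 libraries) only through injured libraries. Tnf therefore adds no support to these counts, nor to the wild-type counts that follow. In the wild type none of the 7 passed the threshold, against 0.116% of all genes, 0.107% as higher. In 5 of the 7 the unadjusted p was under 0.05, against 17.2% of all genes, and in 4 (Tnf, Tnfrsf1a, Tnfrsf1b, Tnfrsf11a) the injured libraries lay above the intact ones without overlap, against 9.22%. The genotypes were not shown to differ: the test of the difference between the injury effects called none of the 7 and 0% of all genes, and 1 of the 7 had an unadjusted p under 0.05, against 8.18% of all genes.

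Tnf (ENSMUSG00000024401, GRCm38 chromosome 17, 35199381 to 35202007, minus strand) was near absent from intact discs, at 0.414, 0.192 and 0.237 TPM in the wild type and 0.494, 0.959, 2.34 and 0.189 TPM in mutants, which correspond to 1 to 13 reads per library. In injured mutants it reached 10.3, 44.0, 18.1, 10.9 and 2.49 TPM in mice 1 to 5. In injured wild-type discs it read 0.977, 1.13, 13.6 and 6.82 TPM in mice 1 to 4. The groups did not overlap in either genotype, although mutant mouse 5 at 2.49 TPM and intact mutant mouse 3 at 2.34 TPM all but met. In mutants the rise was 2.84 ± 0.74 on the log2 scale (SE, limma adjusted p 0.006932). The wild-type difference was 1.87 ± 0.84 (SE, limma adjusted p 0.2498). Tnf reached 1 TPM in 9 libraries, 8 of them injured. It passed the filter on low values (1 TPM in at least 3 libraries) only through the injured libraries. The filter thus favoured a rise, and the rise of Tnf supports nothing by itself. The other 5 genes that rose reached 1 TPM in at least 5 of the 7 intact libraries.

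The other ligands stayed low. Ltb (ENSMUSG00000024399, chromosome 17, 35194439 to 35196320, plus strand), a close neighbour of Tnf in the class III region of the histocompatibility complex, reached 1 TPM in only 2 libraries and was not tested. It read 0.455, 6.02, 0.606, 2.55 and 0.827 TPM in injured mutants 1 to 5, against 0.204 to 0.390 TPM in intact mutants, and 0 to 0.922 TPM in injured wild-type discs. Those levels rest on 3 to 31 reads in injured mutants and 0 to 5 in the other groups. Tnfsf11 (ENSMUSG00000022015, chromosome 14, 78277445 to 78308043, minus strand) was listed at 0 in 12 of the 16 libraries, all 7 intact ones among them. It was seen in injured mutants 1 and 2, at 0.309 and 2.10 TPM, and in injured wild-type mice 3 and 4, at 1.75 and 0.125 TPM, from 4, 16, 13 and 1 reads. A listing of 0 allows up to 3 reads, or 0.232 to 0.543 TPM for this gene depending on the library, with counting error only. No fold change was computed against groups at 0.

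The pair of TNF receptors responded on very different scales. Tnfrsf1a (ENSMUSG00000030341, chromosome 6, 125349362 to 125362484, plus strand) lay at 144, 137, 209 and 147 TPM in intact mutants and at 339, 268, 364, 303 and 345 TPM in injured mutants. In the wild type it lay at 156, 180.2 and 114 TPM in intact discs and 221, 224, 306 and 226 TPM in injured discs. Injured libraries were higher than intact ones without overlap in both genotypes, including injured wild-type mice 1 and 2. In mutants the rise was 1.03 ± 0.17 (SE, limma adjusted p 0.0007835), and the wild-type difference was 0.71 ± 0.19 (SE, limma adjusted p 0.1241).

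Tnfrsf1b (ENSMUSG00000028599, chromosome 4, 145213463 to 145246870, minus strand) showed the largest rise of the set. It lay at 4.34, 2.64, 4.72 and 2.68 TPM in intact mutants and at 67.1, 257, 56.9, 83.8 and 30.8 TPM in injured mutants, a rise of 4.10 ± 0.75 (SE, limma adjusted p 0.001059). In the wild type the intact discs held 2.40, 3.05 and 2.74 TPM and the injured discs 7.88, 16.1, 132 and 66.8 TPM, a difference of 3.20 ± 0.85 (SE, limma adjusted p 0.1133). Groups did not overlap in either genotype, and the spread among injured mice was wide, with the highest library of a group more than 8 times the lowest in both genotypes. The ratio of Tnfrsf1b to Tnfrsf1a was 0.0154 to 0.0302 over all 7 intact libraries. It was 0.0357, 0.0719, 0.431 and 0.295 in injured wild-type mice 1 to 4 and 0.198, 0.959, 0.156, 0.277 and 0.0893 in injured mutants 1 to 5, so that transcripts of the 2 receptors were close to level in injured mutant mouse 2.

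**Figure D2:**
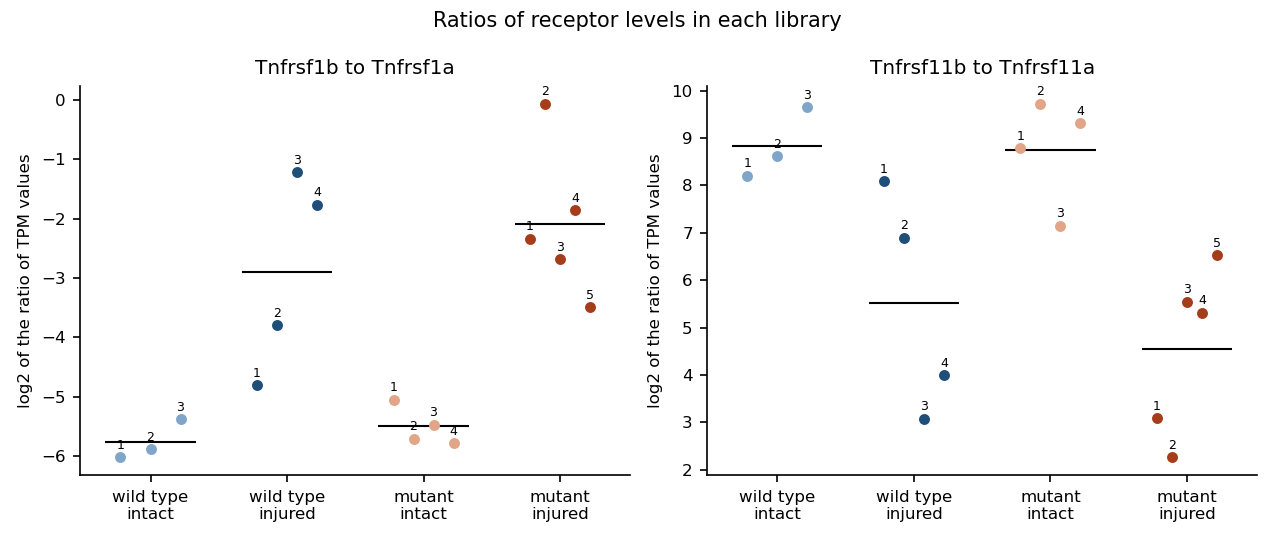
Ratio of TPM values, on a log2 axis, of Tnfrsf1b to Tnfrsf1a (left) and of Tnfrsf11b to Tnfrsf11a (right), 1 numbered point per mouse with the mean of the log2 ratios as a line. Every injured library lies above the intact ones on the left, and on the right injured mutants 1 and 2 and injured wild-type mice 3 and 4 are lowest, at ratios of 8.52, 4.80, 8.46 and 16.

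Of the RANK and osteoprotegerin pair, the signalling receptor rose and the decoy did not follow one direction. Tnfrsf11a (ENSMUSG00000026321, chromosome 1, 105780718 to 105847981, plus strand) lay at 1.15, 0.683, 2.62 and 1.09 TPM in intact mutants and at 21.6, 36.1, 10.7, 18.6 and 6.55 TPM in injured mutants, a rise of 2.90 ± 0.56 (SE, limma adjusted p 0.001556). In the wild type it lay at 2.61, 1.68 and 0.778 TPM in intact discs and 3.26, 6.06, 23.9 and 15.5 TPM in injured discs, with a difference of 2.03 ± 0.64 (SE, limma adjusted p 0.148). The groups did not overlap in either genotype, with injured wild-type mouse 1 only just above intact mouse 1. Without injured wild-type mouse 1, the wild-type differences of Tnfrsf1b (3.85, limma adjusted p 0.02433) and Tnfrsf11a (2.47, limma adjusted p 0.04386) passed the threshold. In that setting 1.87% of all tested genes were called, against 0.116% with all mice. No other alternative called any of the tested members for injury in the wild type.

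Tnfrsf11b (ENSMUSG00000063727, chromosome 15, 54250619 to 54278484, minus strand) lay at 507, 578, 372 and 692 TPM in intact mutants and at 772, 659 and 627 TPM in intact wild-type discs. In injured mutants it read 184 and 173 TPM in mice 1 and 2 and 499, 741 and 604 TPM in mice 3 to 5. In injured wild-type discs it read 886 and 722 TPM in mice 1 and 2 and 202 and 248 TPM in mice 3 and 4. The injured libraries of both genotypes thus lay either within or above the intact range, or below all intact libraries, and the group differences did not pass the threshold. Injured minus intact was -0.49 ± 0.54 for mutants (SE, limma adjusted p 0.4801) and -0.69 ± 0.62 for wild-type mice (SE, limma adjusted p 0.5321). In mutants the split followed the library names. Names begin with A8 in mutants 1 and 2 of each treatment and with M in the others, and the labels do not say what the prefix stands for. Within the M libraries the difference was 0.26, the opposite sign. Markers of notochordal cells, which form the disc nucleus, also varied: the sum of 5 of them (T, Krt19, Krt8, Krt18, Cd24a) was 3328 to 6431 TPM in intact libraries, 552 to 3345 TPM in injured mutants and 5262, 4246, 1457 and 2294 TPM in injured wild-type mice 1 to 4, and its part in the level of Tnfrsf11b was not tested. The ratio of Tnfrsf11b to Tnfrsf11a was 142 to 846 in the 7 intact libraries, 4.80 to 92.2 in injured mutants and 8.46 to 272 in injured wild-type discs.

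Tnfrsf12a (ENSMUSG00000023905, chromosome 17, 23675445 to 23677468, minus strand) had the largest genotype difference of the 7 in injured discs. It lay at 11.3, 14.7, 23.6 and 16.7 TPM in intact mutants and at 139, 90.1, 242, 130.4 and 186 TPM in injured mutants, a rise of 3.14 ± 0.52 (SE, limma adjusted p 0.0007063). In the wild type it lay at 18, 22.5 and 8.06 TPM in intact discs and 22.3, 21.5, 118 and 74.6 TPM in injured discs, where mice 1 and 2 overlapped the intact range. The wild-type difference was 1.55 ± 0.59 (SE, limma adjusted p 0.1905). Between injured genotypes Tnfrsf12a was 1.69 ± 0.52 higher in mutants, which did not pass the threshold (SE, limma adjusted p 0.08198), and the groups overlapped through wild-type mouse 3. The difference passed without that mouse (2.14, limma adjusted p 0.01329), with limma's sample weights (2.03, limma adjusted p 0.02604) and with voom on the implied reads (1.65, limma adjusted p 0.04872). In those settings 9.31%, 4.42% and 2.31% of all tested genes were called, against 0.918% in the main fit. Tnfrsf12a passed between injured genotypes in no other alternative. The difference between the injury effects was 1.59 ± 0.78 (SE, limma adjusted p 0.5884). Its ligand gene Tnfsf12, named here after its values were seen, lay at 51.3 to 54.0 TPM in intact mutants and 33.5 to 95.9 TPM in injured mutants and was not called in any comparison (limma adjusted p 0.966 for injury in mutants). It shares its position with the read-through gene Tnfsfm13, so its value is uncertain.

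Fas (ENSMUSG00000024778, chromosome 19, 34290666 to 34327772, plus strand) changed least among the 6 that rose. It lay at 12.1, 10.8, 9.35 and 10.7 TPM in intact mutants and at 22.3, 29.7, 19.9, 15.4 and 14.8 TPM in injured mutants, a rise of 0.83 ± 0.18 (SE, limma adjusted p 0.004154). In the wild type the intact discs held 15.3, 10.8 and 11.0 TPM and the injured discs 15.1, 16.2, 18.2 and 14.9 TPM, with overlapping groups and a difference of 0.37 ± 0.20 (SE, limma adjusted p 0.3558).

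The library names bear on the mutant calls. When the mutants were limited to the libraries named A8 (2 injured, 2 intact), all 6 genes kept their calls, where 14.8% of all tested genes were called. When they were limited to those named M (3 injured, 2 intact), all 6 differences stayed positive, and 2 of them passed, those of Tnfrsf1a and Tnfrsf12a, where 3% of all tested genes were called against 30.8% with all mutants. Without the A8 libraries the others were Tnf at 2.21 (limma adjusted p 0.1789), Tnfrsf1b at 3.55 (0.0655), Tnfrsf11a at 2.13 (0.1078) and Fas at 0.67 (0.07816).

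**Figure D3:**
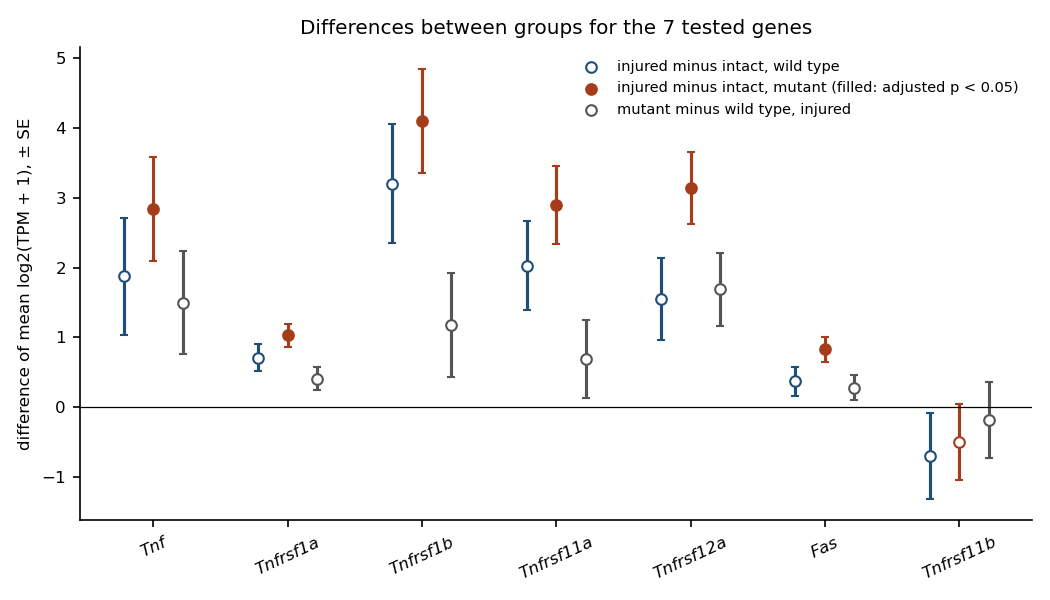
Differences of mean log2(TPM + 1) with standard errors for the 7 tested genes: injured minus intact in the wild type (blue), injured minus intact in mutants (red) and mutant minus wild type in injured discs (grey); filled points passed an adjusted p of 0.05. Filled points are found in mutants alone, in 6 genes, the largest being Tnfrsf1b at 4.10.

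Genotype made no called difference to any of the 7 genes. In intact discs 0.0165% of all genes were called, and none of the 7 had an unadjusted p under 0.05, against 3.78% of all genes. The differences of the 7 ran from -0.38 (Tnfrsf11b) to 0.53 (Tnf), each with a limma adjusted p of 1 and overlapping groups. In injured discs 0.918% of all genes were called, 0.19% as higher and 0.728% as lower in mutants. There the 7 differences ran from -0.18 ± 0.54 (SE) for Tnfrsf11b to 1.69 for Tnfrsf12a, and 3 had an unadjusted p under 0.05, against 20.3% of all genes: Tnfrsf12a, Tnfrsf1a at 0.41 ± 0.17 (SE, limma adjusted p 0.1692) and Tnf at 1.5 ± 0.74 (SE, limma adjusted p 0.2315). The median of all tested genes in this comparison was -0.09 on the log2 scale.

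Promoter sequences are shown for the ligand and the receptor with the largest rises among the tested genes of their kind, Tnf and Tnfrsf1b, and for Fas, the 1 member with a match to the AP-1 motif. They are the 250 bases before the RefSeq start of transcription on GRCm38.p6, 5′ to 3′ on the strand of the gene, at chr17:35202008-35202257 (minus) for Tnf, chr4:145246871-145247120 (minus) for Tnfrsf1b and chr19:34290409-34290658 (plus) for Fas. RefSeq entries were found for 8 of the 9 genes. Capitals mark matches to the AP-1 motif TGANTCA in Fas and the TATA motif TATAAA in Tnf.
Tnf: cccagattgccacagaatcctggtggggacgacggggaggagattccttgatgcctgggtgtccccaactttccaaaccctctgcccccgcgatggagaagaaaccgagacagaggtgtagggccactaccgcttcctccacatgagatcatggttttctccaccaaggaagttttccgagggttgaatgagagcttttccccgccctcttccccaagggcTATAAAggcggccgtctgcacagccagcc
Tnfrsf1b: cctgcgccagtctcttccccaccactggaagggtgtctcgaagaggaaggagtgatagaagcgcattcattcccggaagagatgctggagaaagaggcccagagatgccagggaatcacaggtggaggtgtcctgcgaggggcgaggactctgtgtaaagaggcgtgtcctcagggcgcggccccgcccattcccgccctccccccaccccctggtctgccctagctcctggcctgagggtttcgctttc
Fas: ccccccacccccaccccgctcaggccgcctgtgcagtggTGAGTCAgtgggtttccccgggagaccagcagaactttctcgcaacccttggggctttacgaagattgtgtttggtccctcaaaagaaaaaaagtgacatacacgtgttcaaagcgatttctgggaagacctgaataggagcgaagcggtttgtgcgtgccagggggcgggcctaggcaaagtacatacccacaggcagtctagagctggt
Both strands were searched for 3 motifs, of which TATAAA was added after the sequences had been seen. The AP-1 motif was found in Fas alone, at -211 to -205 from the start, and in 6.7% of all 32851 promoters of this length. TATAAA lay at -29 to -24 in Tnf and, on the opposite strand, at -32 to -27 in Tnfsf11, and was present in 12.4% of promoters. The kappa B consensus, the motif of the NF-kappaB factors, matched Ltb alone, at -87 to -78 on the opposite strand, and 3.9% of promoters. None of the 3 motifs was matched in Tnfrsf1b, which says only that these letters are not in this window.

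Most tested markers of macrophages and neutrophils also rose in injured mutants. In injured mutants 5 of 6 macrophage markers rose, all but Csf1r, against 13.1% of all tested genes. All 4 tested neutrophil markers of 6 (S100a8, S100a9, Csf3r, Cxcr2) rose as well, but they passed the filter only through injured libraries. With voom 5 macrophage and 0 neutrophil markers were called, where 32.4% of all tested genes were called. In the M libraries 0 and 0 were called, where 3% of all tested genes were. The neutrophil sum was 0.515 to 3.78 TPM over the intact libraries, 12.9 to 952 TPM in injured mutants and 1.61 to 175 TPM in injured wild-type discs. T cell markers stayed low, with sums of 0.6 to 2.74 TPM in intact libraries and 1.05 to 12 TPM in injured ones. The sum of 5 endothelial markers (Pecam1, Cdh5, Kdr, Tek, Vwf), none of which was called, was 2.71 to 15.4 TPM in intact libraries, 9.44 to 57.7 TPM in injured mutants and 6.52, 12.7, 169 and 54.8 TPM in injured wild-type mice 1 to 4. Injured mutant mouse 2 was highest and mouse 5 lowest of the injured mutants in the macrophage and neutrophil sums and in Tnf, Tnfrsf1b, Tnfrsf11a and Fas. In Tnfrsf12a and Tnfrsf1a the order differed. Mutant mouse 2, with the highest macrophage sum of 6977 TPM, had the lowest Tnfrsf12a level of the injured mutants. Mutant mouse 3, with a sum of 1052 TPM, had the highest. Tnfrsf1a was also lowest in mutant mouse 2, at 268 TPM, and read 345 TPM in mouse 5. The part of these cells in the results was not tested.

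**Figure D4:**
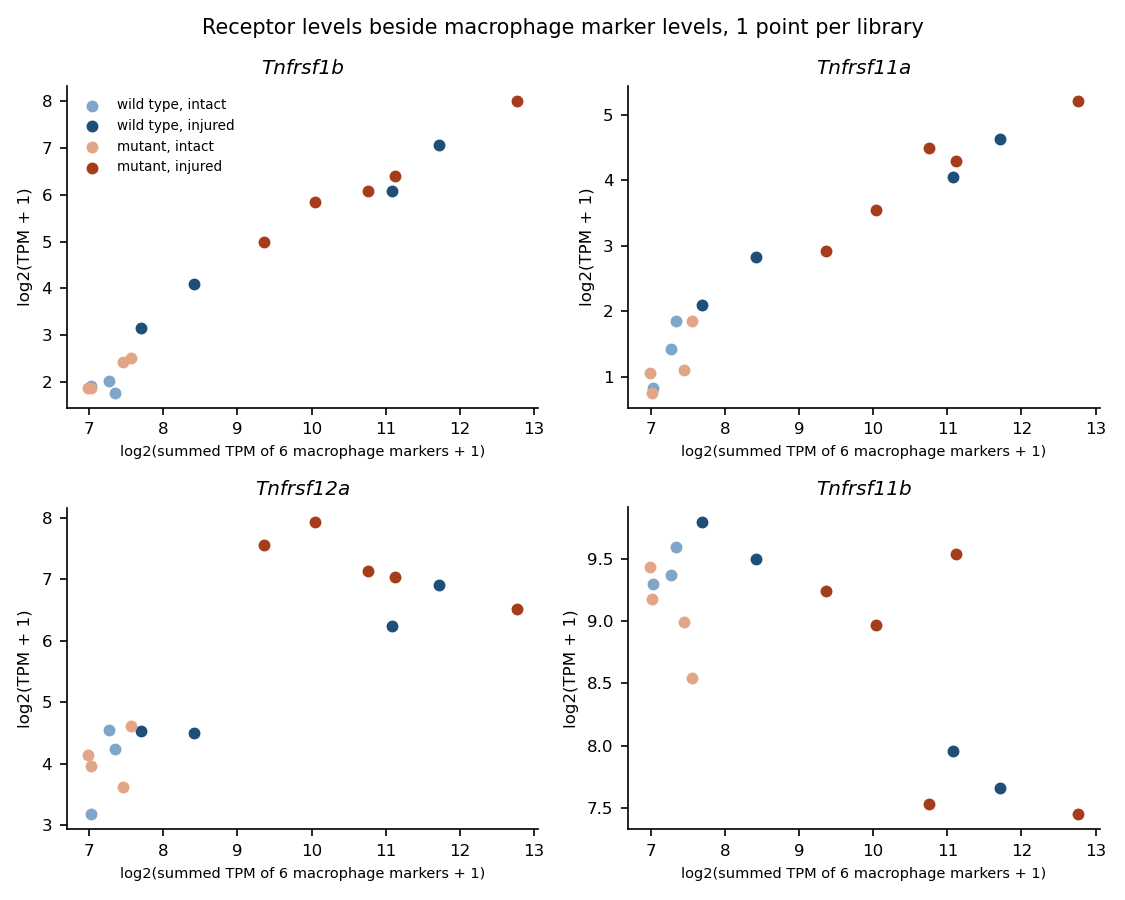
Level of 4 receptors against the summed TPM of 6 macrophage markers, both as log2(value + 1), 1 point per library coloured by group. Lyz2 had the highest group mean of the 6 markers in injured discs of both genotypes. Tnfrsf1b and Tnfrsf11a climb with the marker sum from the intact libraries to injured mutant mouse 2, Tnfrsf12a is highest at intermediate sums, and Tnfrsf11b is near its intact level in 3 injured mutants and 2 injured wild-type mice.

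Genes were then ranked by how closely their levels followed each member over the 16 libraries. Likeness was the root mean square difference of log2(TPM + 1) after centring each gene on its own mean, and the libraries share depth, injury and tissue makeup. For Tnfrsf1b, which itself varied by 2.12 about its mean, the nearest genes included Clec4n (0.25) and Emilin2 (0.30). For Tnfrsf11a, with 1.47 about its mean, they were Atp8b4 (0.21), Dock2 (0.23) and Btk (0.25). Tnf, with 1.63, lay nearest to Trem1 (0.46), Ptpn6 (0.46) and Cd14 (0.47). Tnfrsf12a, with 1.52, lay nearest to Bpifc (0.37), Medag (0.38) and Slc25a37 (0.39), and Tnfrsf11b, with 0.77, to Fads2 (0.31), Fxyd6 (0.31) and Coq8a (0.35). Tnfrsf1a, with 0.51, lay nearest to Fbl, Cnnm4 and Traf3 (each 0.16), and Fas, with 0.41, to Btbd19, Ipmk and Atp6v1a (each 0.16).

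The rest of the superfamily held 37 listed genes, of which 8 of 15 ligands and 19 of 22 receptors were tested. Among ligands 2 rose and 1 fell in injured mutants, so 3 of 8 were called against 30.8% of all tested genes, a share near that background. Some genes named from here on passed the filter on low values only through injured libraries, since fewer than 3 intact libraries had 1 TPM of them. The filter favoured a rise in such genes without fixing it, and the counts and medians that include them support nothing by themselves. Tnfsf14 is one of them. Tnfsf14 (LIGHT) rose by 1.65 ± 0.44 (SE, limma adjusted p 0.009678), from at most 0.159 TPM in intact mutants to 1.012 to 6.33 TPM in injured ones, and Tnfsf9 (the 4-1BB ligand) by 0.89 ± 0.17 (SE, limma adjusted p 0.002423). Lta, which encodes lymphotoxin alpha and neighbours Tnf, fell by 1.20 ± 0.21 on the log2 scale (SE, limma adjusted p 0.001413), from 14.6 to 16.4 TPM in intact mutants to 4.87 to 9.47 TPM in injured mutants. Its neighbour Tnf was higher in injured mutants. Since Tnf passed the filter only through injured libraries, the contrast of Tnf and Lta supports nothing by itself. Tnfsf9 overlaps Gm11110 on the opposite strand and Lta overlaps the microRNA gene Mir6974, so reads may be shared.

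Among the other receptors 8 of 19 rose and 2 fell in injured mutants, against 13.1% and 17.7% of all tested genes, with a median difference of 0.53 against -0.08 over all tested genes. Of the 19, 4 passed the filter only through injured libraries, Tnfrsf13b and Tnfrsf9 of the 8 that rose among them. Tnfrsf13b (TACI, a receptor of BAFF and APRIL) rose by 2.63 ± 0.46 (SE, limma adjusted p 0.001052), from 0.222 to 1.15 TPM in intact mutants to 3.54 to 14.3 TPM. Tnfrsf23, a decoy receptor for TRAIL, rose by 1.46 ± 0.23 (SE, limma adjusted p 0.0006454), and Tnfrsf26 by 1.68 ± 0.58 (SE, limma adjusted p 0.02796). Both lie in a cluster of similar genes with an antisense transcript across it, so their values are uncertain. Tnfrsf9 (4-1BB) at 1.45, Tnfrsf10b (the mouse TRAIL death receptor) at 1.08, Relt at 0.92, Tnfrsf21 (death receptor 6) at 0.84 and Ltbr (the lymphotoxin beta receptor) at 0.53 were the other rises. The value of Tnfrsf9 is uncertain because it overlaps Camta1 on the opposite strand. Ltbr and Tnfrsf26 missed the threshold with voom on the implied reads (limma adjusted p 0.05367 and 0.06574).

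Tnfrsf18 (GITR, a costimulatory receptor of T cells) and Cd27 fell in injured mutants. Tnfrsf18 went from 40.8 ± 4.98 TPM in intact mutants (SD, n = 4) to 20.8 ± 3.53 TPM in injured mutants (SD, n = 5), and fell by 0.95 ± 0.13 on the log2 scale (SE, limma adjusted p 0.0004823). It was also the 1 superfamily gene that was called between injured genotypes, with -0.77 ± 0.13 (SE, limma adjusted p 0.02602), since injured wild-type discs held 29.8 to 40.5 TPM and injured mutants 17.6 to 26.4 TPM, without overlap. That call was lost with only the groups compared (limma adjusted p 0.2069), in each library-name subset and on leaving out any of 6 of the 9 mice (adjusted p-values from 0.005572 to 0.1036 over the 9), while the difference stayed between -0.71 and -0.85 on leaving out mice and between -0.66 and -0.91 in the other settings. Cd27 fell by 0.82 ± 0.16 (SE, limma adjusted p 0.002461). Tnfrsf18 overlaps the antisense gene Gm16008 and Cd27 overlaps Vamp1 on the opposite strand, and whether the counting used strand is not given in the sources used here, so both values are uncertain. T cell markers summed to only 2.02 to 2.32 TPM in intact mutants and 2.996 to 8.18 TPM in injured mutants. Of the 6 markers 2 could be tested, and 0 were called for injury in mutants. The part of T cells in these falls was not tested.

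**Figure D5:**
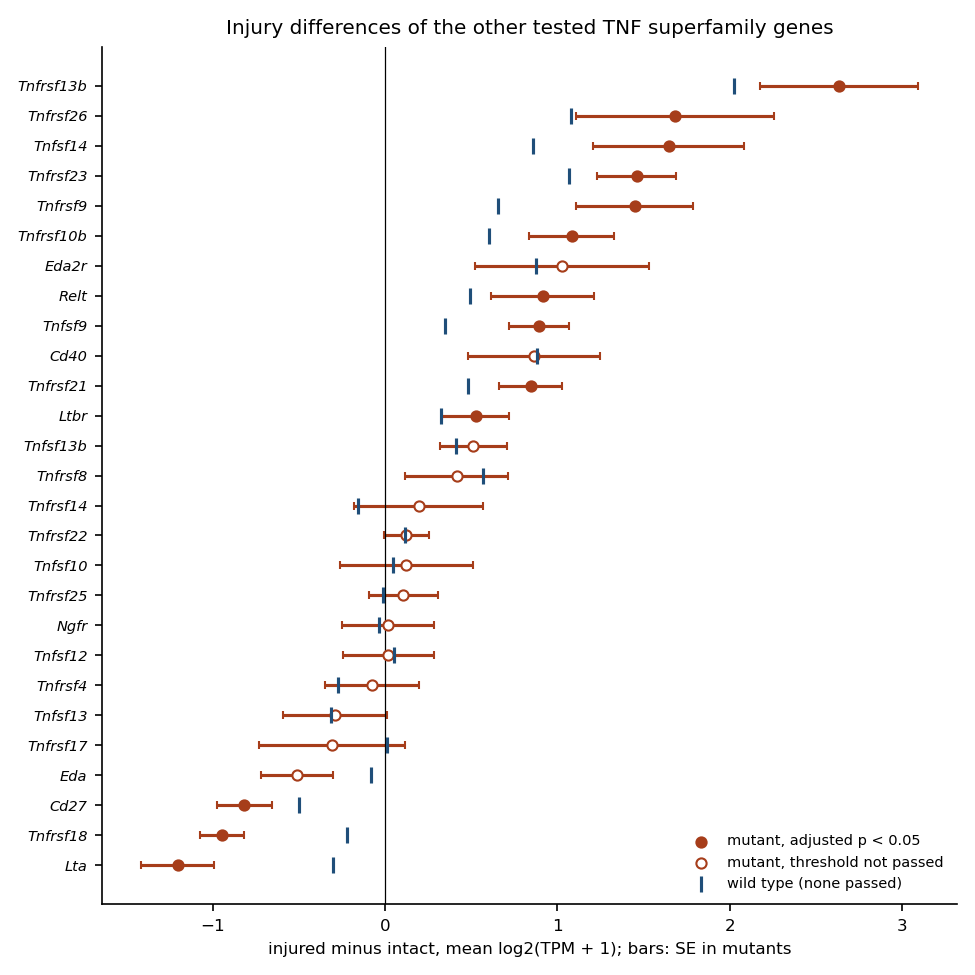
Injured minus intact difference of mean log2(TPM + 1) for the 27 other tested superfamily genes, in mutants (circles with standard errors, filled where the adjusted p was under 0.05) and in the wild type (blue ticks, none past the threshold). Tnfrsf13b is highest at 2.63 and Lta lowest at -1.20 in mutants.

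Downstream of the receptors, 6 of 21 adaptors and kinases rose in injured mutants and 3 fell, with a median of 0.20 against -0.08 over all tested genes. With 13.1% of all tested genes higher and 17.7% lower and 30.8% called in all, the count of falls lies near the background. The largest rises were those of Traf1, an adaptor induced by NF-kappaB that passed the filter only through injured libraries, at 1.73 ± 0.48 (SE, limma adjusted p 0.01091) and Birc3 (cIAP2, a ubiquitin ligase of the TNFR1 complex) at 1.09 ± 0.31 (SE, limma adjusted p 0.012). The largest falls were those of Traf5 at -1.25 ± 0.40 (SE, limma adjusted p 0.01923) and Traf6, the adaptor of RANK and Toll-like receptors, at -0.39 ± 0.11 (SE, limma adjusted p 0.01836). With median-of-ratios scaling the counts were 8 and 2, where 31.1% of all tested genes were called, 52.1% of those as higher. Ikbkb, named after its values were seen, was then no longer among the falls (limma adjusted p 0.2139). Of 8 death signalling genes 5 rose and 0 fell, against the same 13.1% and 17.7%, led by Mlkl, which executes necroptosis and passed the filter only through injured libraries, at 2.04 ± 0.57 (SE, limma adjusted p 0.01051) and its kinase Ripk3 at 1.92 ± 0.40 (SE, limma adjusted p 0.002427). Of 4 genes that control TNF shedding 2 rose, against 13.1% of all tested genes: Adam17, the protease that releases TNF, at 1.06 ± 0.21 (SE, limma adjusted p 0.002052) and Rhbdf2, its partner, at 1.16 ± 0.34 (SE, limma adjusted p 0.01401).

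Of 11 tested genes known to be induced by TNF, 9 rose and 0 fell in injured mutants, against 13.1% and 17.7% of all tested genes, with a median of 2.47, and 3 of the 9 passed the filter only through injured libraries. The largest were the chemokines Cxcl1 at 6.59 ± 1.36 (SE, limma adjusted p 0.001888) and Ccl2 at 5.94 ± 0.73 (SE, limma adjusted p 0.0001976). With voom on the implied reads 6 of the 11 were called, where 32.4% of all tested genes were called, 35.4% of those as higher. Cxcl1 was not among the 6 (limma adjusted p 0.05522). Many of these genes respond to other inflammatory signals as well. Of 5 tested osteoclast genes of 9, which are targets of RANK signalling, 3 rose, against 13.1% of all tested genes. Nfatc1, Acp5 and Mmp9 are named after their values were seen. Of the 5, 3 passed the filter only through injured libraries: Atp6v0d2, which rose, and Acp5 and Mmp9, which were not called. The rises were Atp6v0d2 at 2.26 ± 0.45 (SE, limma adjusted p 0.002019), Ctsk at 0.97 ± 0.27 (SE, limma adjusted p 0.009258) and Nfatc1 at 0.77 ± 0.24 (SE, limma adjusted p 0.01923). Ctsk and Nfatc1 were already abundant in intact mutants, with means of 81.0 and 183 TPM. The 4 untested ones, Oscar, Dcstamp, Ocstamp and Calcr, were at 2.39 TPM or less in all libraries. None of the genes of these 5 lists, nor of the other ligands and receptors, was called for injury in the wild type, near the 0.116% of all tested genes called there.

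In the mutants limited to libraries named M, 0 of 21 adaptors and kinases, 0 of 8 death signalling genes and 1 of 4 shedding genes rose. The other counts of rises there were 2 of 11 TNF-inducible genes, 1 of 5 osteoclast genes, 1 of 8 other ligands and 1 of 19 other receptors. Of all tested genes 3% were called there in either direction, 44.1% of those as higher.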

How the data were processed

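RNA of 16 disc libraries was depleted of ribosomal RNA and sequenced, per the labels' protocols (QIAGEN FastSelect, NEBNext Ultra II). The authors deposited 1 table of TPM values, 1 column per mouse. Per the submitters' processing notes, the build was GRCm38 and bcl2fastq 2.20 was used. The aligner, counting method and use of strand are not given in the sources used here. Columns were matched to mice by their library names, and groups came from the titles. Nothing in the labels pairs mice across groups. Positions and exon lengths came from GENCODE release M21, in which 49056 of 49315 identifiers were found. Dividing TPM times exon length by the value of 1 read put 94.1% to 95% of values under 20 reads within 0.05 of a whole number, so reads per gene are given as implied reads.

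A gene was kept if 3 or more libraries had 1 TPM or more of it, and was tested with limma 3.58.1 (R 4.3.3) on log2(TPM + 1), with all 16 libraries in 1 fit, a mean per group and eBayes with a trend. P-values were Benjamini-Hochberg adjusted over the 24188 tested genes of a comparison, with a threshold of 0.05. The fit was tested on simulated data, and the outcome is not reported here. Alternatives were other pseudocounts, filters, scalings and eBayes settings, a replicate block, subsets by library name, each mouse left out and, chosen after seeing the data, limma voom on the implied reads. All 9 members were named. From each list of related genes the text names, of those called in injured mutants, the 2 that rose most and the 2 that fell most, and any other ligand or receptor called in any comparison. For likeness the rule names the 3 nearest genes of each tested member, of which 1 is not reported here. Members and lists were chosen with earlier results of these data known. Each mouse is 1 sample, so p-values measure the spread between mice.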

Additional observations from a re-analysis of the deposited data

Results flagged for a closer look

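In 26 groups of 4 or 5 mice with any spread, 1 library stood apart from the others of its group in 4 cases by Dixon's criterion on log2(TPM + 1), where chance flags about 1 in 20 groups. Tnfrsf1a was high in injured wild-type mouse 3, at 306.3 TPM against 221 to 226 TPM in the other 3 mice, and in intact mutant mouse 3, at 209.4 TPM against 137 to 147 TPM. Tnfsf11 was high in injured wild-type mouse 3, at 1.75 TPM, and in injured mutant mouse 2, at 2.10 TPM, where the other libraries of both groups held 0 to 4 reads of it. Injured wild-type mouse 3 and injured mutant mouse 2 also had the highest macrophage marker sums of their groups, 3362 and 6977 TPM. The part of those cells was not tested.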

How the results depend on the processing

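The count of genes that rose in injured mutants was 6 in the main fit and in each alternative but one, the restriction to mutant libraries named M, which gave 2. Leaving out each mouse gave 6 to 6 in mutants, 0 to 2 for injury in the wild type, 0 to 1 between injured genotypes, 0 to 0 between intact genotypes and 0 to 0 for the difference of injury effects. Between injured genotypes limma's sample weights and voom on the implied reads, an alternative chosen after seeing the data, each gave 1 call in place of 0. Counts over all genes ranged from 725 to 8559 for injury in mutants (7438 in the main fit), 2 to 452 in the wild type (28), 2 to 2253 between injured genotypes (222), 1 to 8 between intact genotypes (4) and 0 to 15 for the difference of injury effects (0). Signs changed for small uncalled differences. For Tnfrsf11b they were 0.26 for injury in mutants and 0.52 between injured genotypes with M libraries only, and -0.90 for the difference of injury effects with A8 libraries only. Leaving out each mouse gave -0.54 to 0.17 between injured genotypes and -0.16 to 0.55 for the difference of injury effects. Between intact genotypes Tnfrsf12a was -0.058 with sample weights and -0.19 with A8 libraries, Tnfrsf11a 0.090 with M libraries and Tnfrsf1a -0.070 with A8 libraries. There leaving out each mouse gave -0.31 to 0.38 for Tnfrsf12a, -0.44 to 0.067 for Tnfrsf11a and -0.093 to 0.23 for Tnfrsf1a. The cause was not tested. In injured mutants 3168 genes were called higher and 4270 lower, and median-of-ratios scaling made 52.1% of the called genes higher. Between injured genotypes that scaling made 47.5% higher and quantile normalization 34.4%, against 46 higher and 176 lower. Scaling by median of ratios or quantiles changed no sign and no call of the 7 genes. The prefix of the library names could enter as a covariate only for injury and its difference between genotypes. Groups share mouse numbers, but 1 of 21 same-numbered pairs had a correlation of deviations over 0.1 (-0.217 to 0.151). Differently numbered pairs ran from -0.311 to 0.304. No pairing by number was seen, and with so few mice the check cannot exclude one. With a replicate block 6 members were called for injury in mutants, 0 in each other comparison, and 6191, 5, 2, 11 and 0 genes of all in the 5 comparisons, and Tnfrsf18 between injured genotypes had a limma adjusted p of 0.06863. Depth limits Tnfsf11 and Ltb, which rest on at most 16 and 31 reads. With no filter on low values neither was called for injury.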
